A study of Mus musculus with 12 samples.

Results

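Matrix metalloproteinases (MMPs) and tissue inhibitors of metalloproteinases (TIMPs) were examined as a set of 10 named genes, 7 MMPs and 3 TIMPs, of 21135 genes in the table. The set was chosen by gene name, with earlier results of these data known, and does not hold the whole family. Its members are Mmp2, Mmp8, Mmp9, Mmp12, Mmp13, Mmp14, Mmp19, Timp1, Timp2 and Timp3. RNA-seq was performed on microglia, the resident macrophages of the brain, sorted by flow cytometry from mouse midbrain. The KO MPTP and KO PBS groups had the genotype Ppargc1a FF CreER and the WT MPTP and WT PBS groups the genotype Ppargc1a FF, so that all animals carried the FF allele and the controls lacked CreER. All 4 groups were taken 6 weeks after tamoxifen, controls included. MPTP is a toxin of dopaminergic neurons, PBS was its vehicle control, and Ppargc1a encodes the coactivator PGC-1alpha. The labels name neither the promoter driving CreER nor the age of the animals, and do not say whether samples of a group were separate animals. The p-values below therefore reflect how much the profiles varied, and that variation may be technical.

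MMPs are zinc-dependent endopeptidases that cleave collagens, elastin, laminins and other proteins outside the cell, as well as cytokines and receptors. Most are secreted as inactive zymogens whose propeptide must be removed, and TIMPs block the active site by binding it. In the brain, activated microglia and infiltrating leukocytes are known sources of MMPs, which can act on the basement membrane of vessels. TIMP2 also has a part in activation, since it forms the bridge by which the membrane-anchored MMP14 captures the zymogen of MMP2.

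The labels list 12 samples, 3 per group, but 6 of the 12 columns were arithmetic copies of others. In all 25 rows of the members, column 3 of each group could be computed from columns 1 and 2 as 0.99 times their mean plus 0.1, WT MPTP 2 equalled 1.02 times WT MPTP 1, and KO MPTP 1 equalled 1.02 times KO PBS 2, to rounding (within 0.00995 FPKM for column 3 and 0.0101 FPKM for the others). Over the 67355 rows of the whole table, 46 departed from these relations in KO MPTP 1 and 28 in WT MPTP 2. In WT PBS 3, 1 row departed. The values below therefore come from 6 separate profiles: KO MPTP 2, KO PBS 1, KO PBS 2, WT MPTP 1, WT PBS 1 and WT PBS 2. The profile of KO PBS 2 stands under both treatments in KO, so it was used for genotype and left out of every comparison by treatment. Values were taken as FPKM, fragments scaled by transcript length and by the mapped total, which allows levels of different genes to be compared. The read depth is unknown. Ppargc1a was at 0.42, 0.33 and 0.12 FPKM in KO MPTP 2, KO PBS 1 and KO PBS 2, against 2.72, 5.70 and 6.21 FPKM in WT MPTP 1, WT PBS 1 and WT PBS 2, as the genotype labels require. The macrophage genes Cd68 and Csf1r averaged 479 ± 20 and 117 ± 5 FPKM (SD, n = 6 profiles), whereas the microglial genes Cx3cr1, P2ry12 and Siglech averaged 0.052, 0.19 and 0.025 FPKM and Sall1 was listed at 0, so the label of primary microglia was met by general macrophage genes and not by these 4 genes.

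RefSeq promoter windows (build GRCm38.p6, 250 bases before to 50 after an annotated start) were at hand for 7 of the 10 members. Windows of 3 members are shown because they hold the highest MMP, its neighbour of low level on the same chromosome and the highest TIMP. Capitals mark matches, on either strand, to TGANTCA (the AP-1 motif), TATAAA (the TATA box core) or GGGCGG (the GC box). For Mmp12 the window of the second of 2 annotated starts is given.
Mmp12, chr9:7347124-7347423, plus strand: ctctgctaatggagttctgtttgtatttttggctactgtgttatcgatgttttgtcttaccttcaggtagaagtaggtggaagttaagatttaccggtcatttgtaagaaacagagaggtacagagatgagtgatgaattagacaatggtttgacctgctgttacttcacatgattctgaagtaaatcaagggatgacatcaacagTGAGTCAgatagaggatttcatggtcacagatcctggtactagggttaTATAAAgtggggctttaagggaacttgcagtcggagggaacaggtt
Mmp13, chr9:7272264-7272563, plus strand: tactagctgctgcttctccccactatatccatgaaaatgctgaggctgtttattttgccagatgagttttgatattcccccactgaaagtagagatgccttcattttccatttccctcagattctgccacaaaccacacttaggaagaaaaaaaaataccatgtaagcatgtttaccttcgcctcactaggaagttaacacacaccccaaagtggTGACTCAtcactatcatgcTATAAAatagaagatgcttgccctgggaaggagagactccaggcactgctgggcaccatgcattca
Timp2, chr11:118355362-118355661, minus strand: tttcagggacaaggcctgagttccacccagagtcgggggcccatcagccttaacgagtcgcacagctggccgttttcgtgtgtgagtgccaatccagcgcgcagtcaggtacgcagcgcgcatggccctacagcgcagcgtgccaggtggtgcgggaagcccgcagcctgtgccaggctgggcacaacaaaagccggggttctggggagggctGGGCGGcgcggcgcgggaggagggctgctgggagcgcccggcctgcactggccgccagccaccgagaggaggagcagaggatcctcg
The Mmp12 and Mmp13 windows each held 1 TGANTCA and 1 TATAAA, and the other Mmp12 window held none of the 3 motifs. Relative to the annotated start, the TATAAA began at base 4 in Mmp12, after the start, and at −16 in Mmp13. The TGANTCA began at −44 in Mmp12 and at −35 in Mmp13. The Timp2 window held 1 GGGCGG and neither of the other motifs, and 68.7% of its bases were G or C, against 40.7% in the Mmp12 window and 43.7% in that of Mmp13. Among all 32851 windows, 7.81% held TGANTCA, 13.6% held TATAAA and 35.7% held GGGCGG. A match of letters is a description of the window and was not tested as a site.

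Timp2 was the most abundant member, and Mmp12 led the proteinases. Averaged over the 6 profiles, Timp2 stood at 59.6 ± 3.4 FPKM (SD, n = 6 profiles), in rank 955 of all genes. Mmp12, the macrophage metalloelastase, averaged 17.5 ± 0.9 FPKM, and Mmp19, a widely expressed secreted MMP, averaged 6.83 ± 0.37 FPKM. Mmp9, or gelatinase B, averaged 3.56 ± 0.30 FPKM, and Mmp8, a collagenase best known from neutrophil granules, averaged 2.39 ± 0.24 FPKM. The other 5 members lay under 1 FPKM in every profile. The membrane-anchored proteinase gene Mmp14 ranged from 0.28 to 0.41 FPKM, the collagenase gene Mmp13 from 0.22 to 0.38, Timp1 from 0.10 to 0.25 and the gelatinase A gene Mmp2 from 0.07 to 0.21 FPKM. Timp3, whose product binds to the matrix, was listed at 0 in all 6 profiles.

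The order of levels was sharp at the top and blurred below. From Timp2 down to Mmp14, no member overlapped its neighbour: the lowest Timp2 value was 54.95 FPKM against 18.64 for the highest Mmp12 value, and the lowest Mmp8 value was 2.12 against 0.41 for the highest Mmp14 value. The narrowest gap was that between Mmp9 and Mmp8, with a ratio of means of 1.49. Mmp14 and Mmp13, Mmp13 and Timp1, and Timp1 and Mmp2 overlapped in range.

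**Figure D1:**
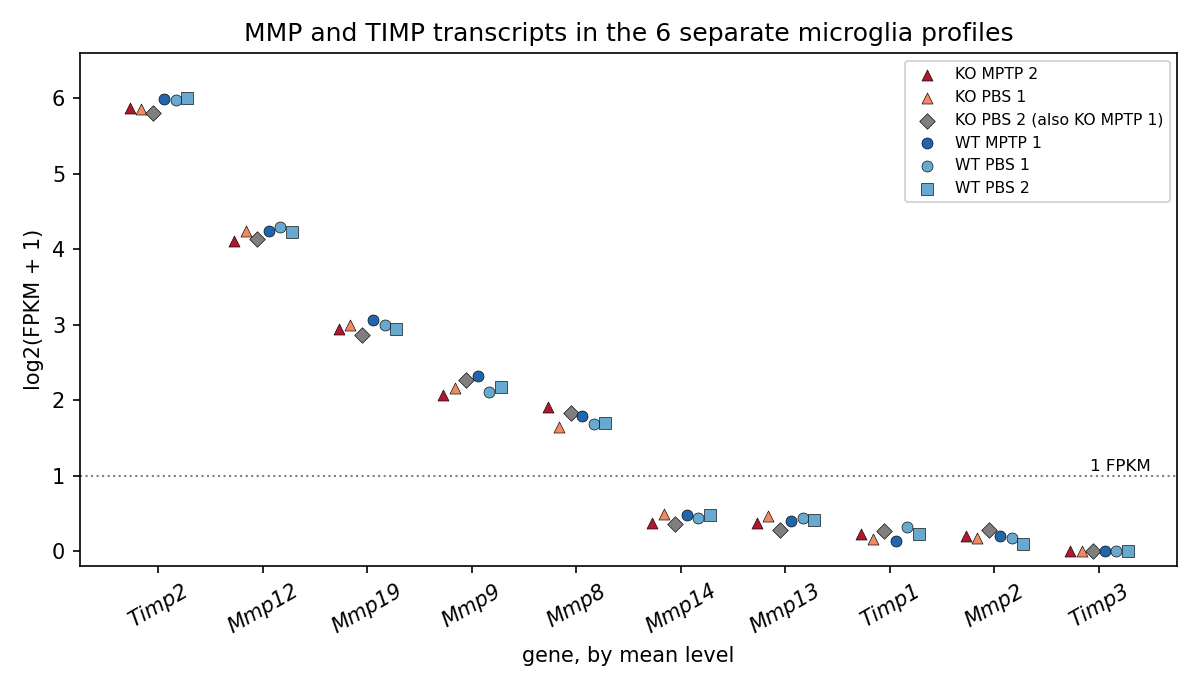
Level of each of the 10 genes, as log2(FPKM + 1), in the 6 separate profiles (1 symbol per profile), in the order of mean level. Timp2, Mmp12, Mmp19, Mmp9 and Mmp8 lie above the dotted line at 1 FPKM in every profile and the other 5 lie below it.

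Among inhibitors and proteinases summed, Timp2 made up between 99.6% and 99.8% of the TIMP total in each profile, and Mmp12 between 54.8% and 58.2% of the MMP total. The summed TIMP level was 1.95, 1.82 and 1.85 times the summed MMP level in KO MPTP 2, KO PBS 1 and KO PBS 2, against 1.93, 1.94 and 2.04 times in WT MPTP 1, WT PBS 1 and WT PBS 2. The KO and WT values of this ratio overlapped. The ratio concerns transcripts and says nothing of protein or activity.

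Mmp13, Mmp12 and Mmp8 lie in a run of 10 MMP genes on chromosome 9 in the RefSeq annotation, and of the 7 analysed here Mmp12 and Mmp8 were those that exceeded 1 FPKM. Mmp27, in the same run, averaged 0.52 FPKM, and Mmp10, Mmp7 and Mmp20 averaged 0.06, 0.0033 and 0.0017 FPKM.

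The table gives several members as more than 1 numbered row, and the definition of a row is not given in the sources used here. Timp2 consisted of row 1, at 24.9 ± 1.5 FPKM, and row 2, at 34.7 ± 2.5 FPKM (SD, n = 6 profiles). Mmp12 was spread over 6 rows, of which row 2 carried 48.1%, row 7 carried 35.2% and row 3 carried 14.5% of its level. In Mmp9, row 3 was even across profiles, from 2.03 to 2.35 FPKM, and row 4 ranged from 0.87 to 1.77 FPKM. Most of the range of Mmp9 between profiles was thus in row 4.

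**Figure D2:**
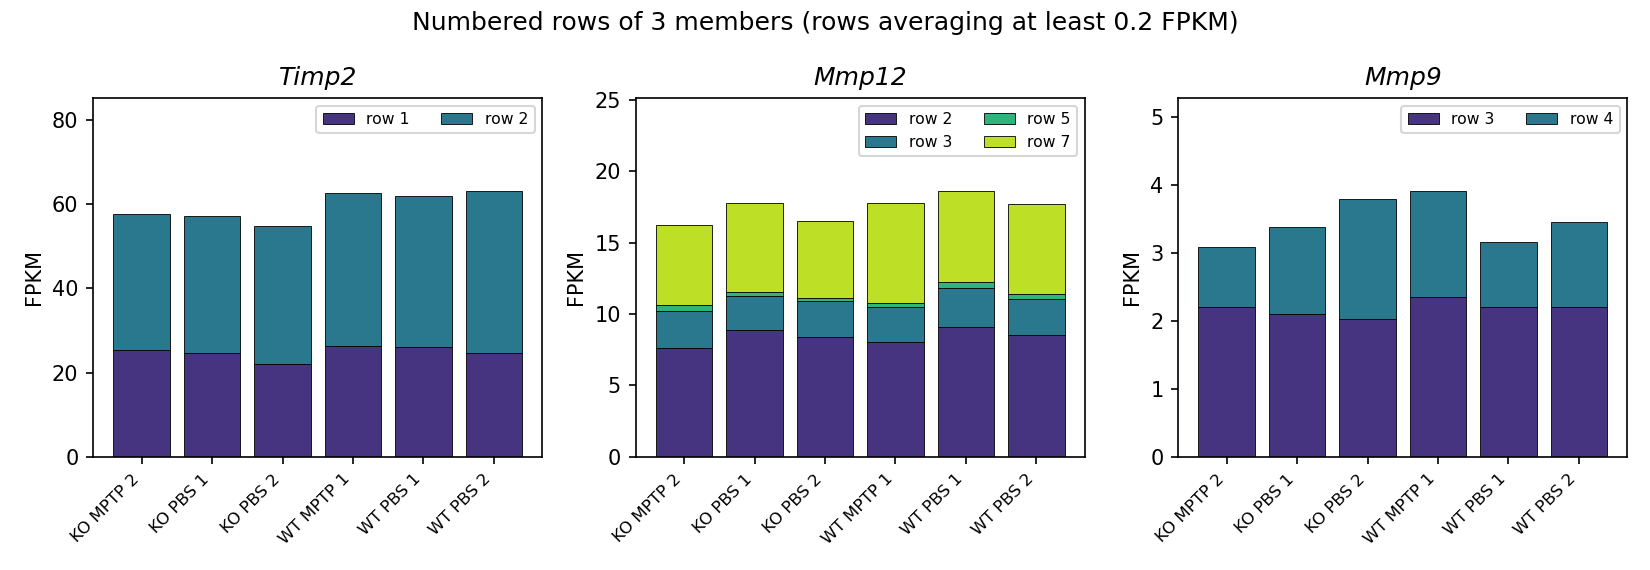
FPKM of the numbered rows that make up Timp2, Mmp12 and Mmp9 in each of the 6 separate profiles (stacked bars, 1 colour per row, rows averaging at least 0.2 FPKM). Timp2 row 2 is lower in the 3 KO profiles, at 32.3 to 32.9 FPKM, than in the 3 WT profiles, at 35.9 to 38.5 FPKM, and Mmp9 row 4 ranges from 0.87 to 1.77 FPKM.

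Differences were tested with limma, a linear model fitted across all genes, on log2(FPKM + 1), for genes that reached 1 FPKM in 3 or more of the 6 profiles. This left 10636 genes, with Timp2, Mmp12, Mmp19, Mmp9 and Mmp8 among them, and the other 5 members were not tested. A gene was called at a Benjamini-Hochberg adjusted p under 0.05 over all genes tested. None of the 5 tested members was called in any of the 7 comparisons. At an unadjusted limma p under 0.05, Timp2 lay there in KO against WT over 6 profiles, where 3.5% of all genes did, and Mmp8 in MPTP against PBS in KO, where 9.24% did. No member lay there in the other 5 comparisons, where the share of all genes was 3.62% for KO against WT under MPTP, 4.45% for KO against WT under PBS, 6.6% for MPTP over both genotypes, 2.69% for MPTP in WT and 5.18% for the interaction.

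The question of whether loss of PGC-1alpha alters these genes was addressed with the 3 KO and the 3 WT profiles, pooled over treatment. Timp2 was the 1 tested member whose genotypes did not overlap. It was at 57.6, 57.1 and 55.0 FPKM in KO MPTP 2, KO PBS 1 and KO PBS 2, against 62.7, 61.9 and 63.2 FPKM in WT MPTP 1, WT PBS 1 and WT PBS 2. All KO profiles were below all WT profiles, with means of 56.6 ± 1.4 FPKM in KO and 62.6 ± 0.7 FPKM in WT (SD, n = 3 each), a ratio of 0.904. On the log2(FPKM + 1) scale the difference was −0.14 ± 0.05 (SE; limma, unadjusted p = 0.0124, 95% interval −0.25 to −0.04), and it was not called, with an adjusted p of 0.997. The exact permutation test gave a two-sided p of 0.10, the smallest that 3 against 3 allows. Both rows had lower means in KO. Row 2 averaged 32.6 FPKM in KO and 36.9 FPKM in WT, a difference of −4.34 FPKM, and no KO profile reached a WT profile. Row 1 averaged 24.0 FPKM in KO and 25.7 FPKM in WT, a difference of −1.68 FPKM, and its genotypes overlapped, at 25.3, 24.6 and 22.1 FPKM in KO MPTP 2, KO PBS 1 and KO PBS 2 against 26.4, 26.0 and 24.7 FPKM in WT MPTP 1, WT PBS 1 and WT PBS 2.

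In this comparison 8 of 10636 genes were called, or 0.0752%, all of them lower in KO, and 0 of the 5 tested members. A share of 7.19% of all genes was, like Timp2, lower in KO with no overlap. Most genes were slightly lower in KO: 69.5% were below 0, with a median of −0.03, against 4 of the 5 tested members, with a median of −0.07. The summed deposited values were also lower in 2 of the 3 KO profiles than in any WT profile, at 409278, 388861 and 389883 FPKM in KO MPTP 2, KO PBS 1 and KO PBS 2 against 425554, 401734 and 411692 FPKM in WT MPTP 1, WT PBS 1 and WT PBS 2. With the profiles rescaled by the trimmed mean of M-values (TMM) the Timp2 difference was −0.12 (limma, unadjusted p = 0.0124, adjusted p = 0.991). With quantile normalization it was −0.09 (limma, unadjusted p = 0.0358), and with the row of highest mean it was −0.18 (limma, unadjusted p = 0.00474, adjusted p = 0.725). Without the profile under 2 labels it was −0.12 with an unadjusted limma p of 0.0749. The unadjusted limma p was under 0.05 in 14 of 16 alternatives that used separate profiles, and the lowest adjusted p among them was 0.463. The summed macrophage and microglia markers (11 of 12 analysed, Cd68 the highest) ranged from 1047 to 1134 FPKM in KO and from 1133 to 1168 FPKM in WT, and their part in the result was not tested. In bulk samples, fewer cells of a type and less RNA per cell cannot be told apart.

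The proteinases overlapped between genotypes. Mmp12 was at 16.3, 18.0 and 16.5 FPKM in KO MPTP 2, KO PBS 1 and KO PBS 2, against 17.9, 18.6 and 17.8 FPKM in WT MPTP 1, WT PBS 1 and WT PBS 2. KO PBS 1 lay among the WT values and the other KO profiles lay below them, and the limma difference was −0.09 ± 0.06 on the log2 scale (SE, 95% interval −0.21 to 0.03). Mmp19 was at 6.70, 6.96 and 6.27 FPKM in the KO profiles, in the same order, against 7.37, 6.99 and 6.69 FPKM in the WT profiles. Its difference was −0.07 ± 0.06 (95% interval −0.20 to 0.06), with KO PBS 2 lowest and WT MPTP 1 highest. For Mmp9 the difference was −0.03 ± 0.07 (95% interval −0.19 to 0.12) and for Mmp8 0.07 ± 0.08 (95% interval −0.09 to 0.23). These intervals are unadjusted and lay within 0.25 log2 units of 0 for the 4 proteinase genes, on a scale that understates the change of low genes. They describe profiles pooled over treatment, whose variation may be technical. They therefore do not bound a genotype difference between animals or within a treatment.

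**Figure D3:**
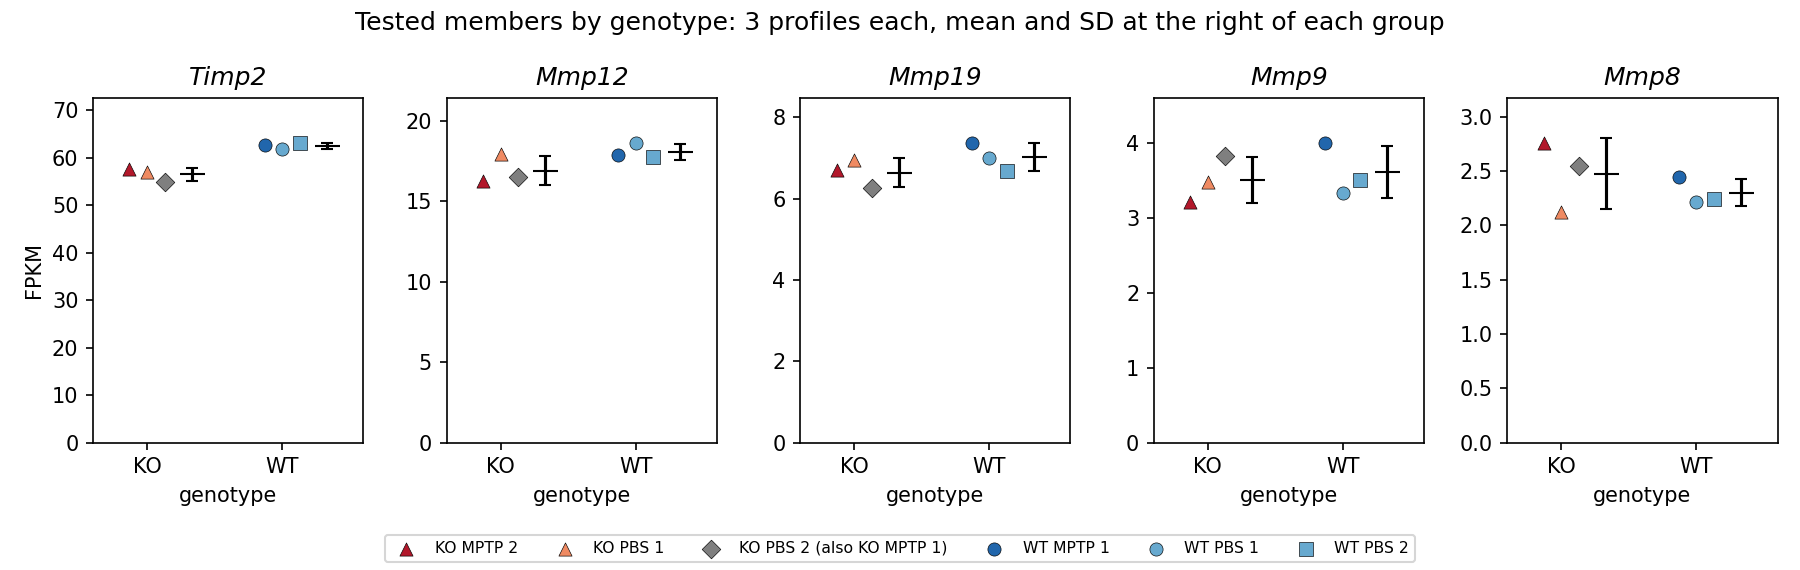
FPKM of the 5 tested genes in the 3 KO profiles (left in each panel) and the 3 WT profiles (right), with 1 symbol per profile, and the mean and SD of each genotype beside the symbols. Timp2 is at 55.0 to 57.6 FPKM in KO and at 61.9 to 63.2 FPKM in WT, while the genotypes overlap for Mmp12, Mmp19, Mmp9 and Mmp8.

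Within treatments each KO group had 1 usable profile, and single profiles were assumed to vary like the WT PBS pair. Under MPTP, the Timp2 difference between KO and WT was −0.12 ± 0.09, and under PBS it was −0.13 ± 0.08 on the log2 scale (SE). Under PBS all genes had a median of −0.06, and the Timp2 difference there was −0.06 with TMM rescaling and −0.05 with quantile normalization. Mmp9 was at 3.21 FPKM in KO MPTP 2 against 4.0 FPKM in WT MPTP 1, a difference of −0.25 ± 0.11 (limma, unadjusted p = 0.0518, adjusted p = 1). With the row of highest mean in place of the sum of rows, the Mmp9 difference was −0.06, since row 4 stood at 0.87 FPKM in KO MPTP 2 against 1.56 FPKM in WT MPTP 1. KO PBS 2, whose values also stand under KO MPTP 1, had 3.83 FPKM of Mmp9. With that profile counted as KO MPTP the Mmp9 difference was −0.14. Over all alternatives that used separate profiles it ranged from −0.33 to −0.06 and kept its sign. Under PBS, Mmp9 was at 3.48 FPKM in KO PBS 1 against 3.33 and 3.51 FPKM in WT PBS 1 and 2, and its difference was 0.02 ± 0.10. In these comparisons 14 genes (0.132%) were called under MPTP and 24 (0.226%) under PBS.

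The response to MPTP was addressed over both genotypes with 2 MPTP and 3 PBS profiles, allowing for genotype. Mmp8 was at 2.76 and 2.45 FPKM in KO MPTP 2 and WT MPTP 1, against 2.12, 2.22 and 2.24 FPKM in KO PBS 1, WT PBS 1 and WT PBS 2. Both MPTP profiles were above all 3 PBS profiles. The profile under 2 labels, KO PBS 2, had 2.55 FPKM, above WT MPTP 1, so the groups overlap if it is counted as PBS. The difference was 0.17 ± 0.07 on the log2 scale (SE; limma, unadjusted p = 0.0513, adjusted p = 0.574, 95% interval −0.0012 to 0.34). By the exact permutation test, two-sided and without genotype, p was 0.20, the smallest that 2 against 3 allows. Of all 10636 genes, 28.2% were, like Mmp8, higher under MPTP with no overlap, and 15 genes (0.141%) were called. The median difference of all genes was 0.07, and with TMM rescaling, which brought that median to 0.0050, the Mmp8 difference was 0.12.

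The Mmp8 difference was 0.27 ± 0.11 in KO (SE; limma, unadjusted p = 0.0351, adjusted p = 0.498) and 0.10 ± 0.10 in WT (adjusted p = 1). In KO all genes had a median of 0.09, which TMM rescaling brought to −0.0064, and the rescaled Mmp8 difference in KO was 0.19. The difference between the 2 responses was itself 0.17 ± 0.15 (interaction; limma, adjusted p = 1.000), so they were not shown to differ. With the doubly labelled profile added to KO PBS, the Mmp8 difference in KO was 0.18 (limma, unadjusted p = 0.116), with the replicate number as a further term it was 0.13, and with that profile added to KO MPTP it was 0.24 (unadjusted p = 0.0310). With KO PBS 2 in place of KO PBS 1 it was 0.08. Over both genotypes the difference was 0.10 without KO MPTP 2 or without KO PBS 1, and 0.27 without WT MPTP 1. Called genes numbered 31 (0.291%) in KO, 27 (0.254%) in WT and 8 (0.0752%) for the interaction.

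Of the 10 listed markers of neutrophils, the cells best known for Mmp8, 8 were analysed and 2 tested, S100a8 and Cxcr2. S100a8, a calcium-binding protein gene of neutrophils and activated macrophages, was at 5.76 and 5.75 FPKM in KO MPTP 2 and WT MPTP 1, against 3.81, 3.75 and 4.35 FPKM in KO PBS 1, WT PBS 1 and WT PBS 2 (log2 difference 0.45 ± 0.08, SE; limma, adjusted p = 0.183). Cxcr2, a chemokine receptor gene, was at 20.9 and 20.7 FPKM in KO MPTP 2 and WT MPTP 1, against 19.95, 21.55 and 20.61 FPKM in KO PBS 1, WT PBS 1 and WT PBS 2, and its groups overlapped (log2 difference 0.01 ± 0.05, SE; limma, adjusted p = 0.898). The summed level of the 8 markers was 27.0 to 27.5 FPKM under MPTP and 24.5 to 25.9 FPKM under PBS, and among the 8 S100a8 had the largest difference in FPKM between these groups. Of all genes tested, 28.2% were likewise higher under MPTP with no overlap, and their median log2 difference was 0.07. The granule protease gene Elane was at 0.67 and 0.49 FPKM in KO MPTP 2 and WT MPTP 1, against 0.53, 0.38 and 0.55 FPKM in KO PBS 1, WT PBS 1 and WT PBS 2, with overlap. The granule and surface genes Ly6g and Mpo were at 0.01 FPKM or less in every profile but KO MPTP 2, where Mpo was at 0.02, and Ngp, Camp and Ltf averaged 0.047, 0.04 and 0.065 FPKM. The part of such cells in the Mmp8 values was not tested.

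Timp2, Mmp12, Mmp19 and Mmp9 overlapped between MPTP and PBS, and none was called. Over both genotypes the limma differences were 0.0083 ± 0.05 for Timp2 (95% interval −0.10 to 0.11), −0.07 ± 0.06 for Mmp12 (−0.20 to 0.06), 0.03 ± 0.07 for Mmp19 (−0.12 to 0.19) and 0.06 ± 0.08 for Mmp9 (−0.12 to 0.25). With TMM rescaling they were −0.06 for Timp2, −0.14 for Mmp12 (unadjusted p = 0.0533), −0.03 for Mmp19 and 0.0097 for Mmp9, so that the sign turned for Timp2 and Mmp19 and the Mmp12 value was larger in size. Mmp12 was at −0.14 with quantile normalization too (unadjusted p = 0.0469, adjusted p = 1) and at −0.16 with its row of highest mean (unadjusted p = 0.0411, adjusted p = 0.602). By genotype, the Mmp12 difference was −0.13 in KO and −0.02 in WT, and with TMM rescaling −0.24 and −0.06. In KO it was −0.08 with the doubly labelled profile added to KO PBS. Mmp9 was the member with the largest interaction in size, at −0.27 ± 0.15 (SE; limma, unadjusted p = 0.102). It was at 4.0 FPKM in WT MPTP 1 against 3.33 and 3.51 FPKM in WT PBS 1 and WT PBS 2, and at 3.21 FPKM in KO MPTP 2 against 3.48 FPKM in KO PBS 1. The direction in KO depended on the processing: the Mmp9 difference under MPTP in KO was −0.09, but 0.02 with the doubly labelled profile added to KO MPTP and 0.05 with the row of highest mean. Over the alternatives the interaction ranged from −0.41 to −0.01, and it was not called in any of them.

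**Figure D4:**
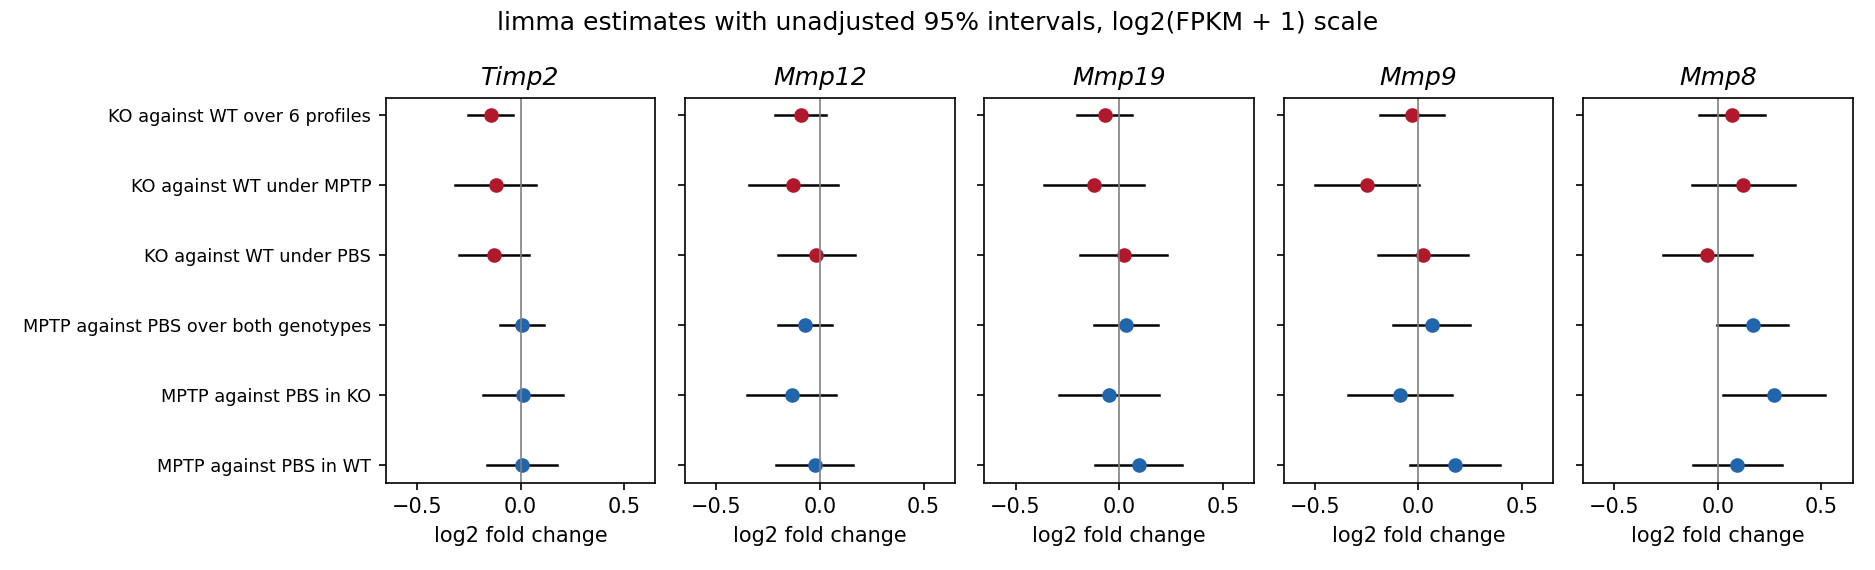
Estimated log2 fold changes, on the log2(FPKM + 1) scale, of the 5 tested genes in 6 comparisons (points; red, KO against WT; blue, MPTP against PBS) with unadjusted 95% intervals (lines). The interval leaves out 0 for Timp2 in KO against WT over 6 profiles, −0.25 to −0.04, and for Mmp8 under MPTP in KO, 0.02 to 0.52, and no value was called after adjustment.

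Several genes whose products act around the MMPs stood at higher levels than the MMP genes. Of 17 other members of the family (16 MMPs and Timp4), 13 were analysed and none reached a mean of 1 FPKM, with Mmp27 at 0.52 ± 0.07 and Mmp23 at 0.31 ± 0.11 FPKM (SD, n = 6 profiles). Of 22 ADAM and ADAMTS proteinases 19 were analysed and 7 tested, led by Adam15 at 66.3 ± 3.6 FPKM and Adam8 at 46.0 ± 3.4 FPKM. The plasminogen system, whose product plasmin can remove MMP propeptides, had 7 of 12 genes tested, led by Eno1, a glycolytic enzyme that also binds plasminogen, at 887 ± 41 FPKM and Anxa2 at 298 ± 16 FPKM. Among partners of MMPs, 8 of 15 genes were tested, with Bsg, an inducer of MMPs, at 265 ± 14 FPKM and Cd63, a receptor of TIMP1, at 263 ± 11 FPKM. Among 30 matrix substrates 25 were analysed and 5 tested, and Spp1, a secreted matrix phosphoprotein that MMPs cleave, stood at 3192 ± 194 FPKM, followed by Lamc1 at 15.8 ± 0.5 FPKM.

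None of the 27 tested genes of these companion lists was called in any of the 7 comparisons, and between 1 and 2 of them had an unadjusted p under 0.05 in each (limma). Furin, a convertase that removes the propeptide of MMP14, was among these in KO against WT over 6 profiles, at 59.9, 53.7 and 52.3 FPKM in KO MPTP 2, KO PBS 1 and KO PBS 2 against 59.4, 61.5 and 60.1 FPKM in WT MPTP 1, WT PBS 1 and WT PBS 2, so that KO MPTP 2 lay among the WT values. Adam8, a membrane proteinase of leukocytes, was among them for MPTP over both genotypes, at 48.7 and 51.1 FPKM in KO MPTP 2 and WT MPTP 1 against 43.9, 42.0 and 46.0 FPKM in KO PBS 1, WT PBS 1 and WT PBS 2. In MPTP against PBS in KO, Plgrkt and Adamts10 had the largest differences of the companion genes, at 0.35 and 0.34. The median of all genes there was 0.09. In WT both genes were at −0.08, and their interactions were 0.43 and 0.42, the largest of the companion genes. These values rest on 1 KO profile per treatment. Furin, Adam8, Plgrkt and Adamts10 are named because of their values, not by a rule. Under loss of PGC-1alpha, all 7 plasminogen system genes and all 8 partner genes were below 0, with medians of −0.09 and −0.06. So were 6 of the 7 ADAM and ADAMTS genes and 4 of the 5 matrix substrates, both with a median of −0.04. Of all genes 69.5% were below 0, with a median of −0.03, which TMM rescaling brought to −0.0043. Over both genotypes, all 8 partner genes and all 7 ADAM and ADAMTS genes were above 0 under MPTP, with medians of 0.05 each. Of the plasminogen system genes 1 of 7 was below 0, and of the matrix substrates 1 of 5, with medians of 0.07 and 0.08. Of all genes 11.6% were below 0, and the median was 0.07.

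No member was called, so genes of like pattern were sought for the tested member of widest range, Mmp8. Its values spanned 0.27 on the log2 scale over the 6 profiles, against a median span of 0.19 over all tested genes. By the root mean square difference of mean-centred log2 values over the 6 profiles, the nearest genes were Adat1 (0.013), Gata3 (0.015) and Pced1a (0.018). Such likeness over 6 profiles is a description only.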

How the data were processed

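The table the authors deposited has 67355 rows and 12 columns, whose names match the sample titles. Its values were taken as FPKM: no header states the unit, but the submitters' processing notes name CASAVA 1.5, Bowtie 0.12.7, TopHat, Cufflinks and build mm9, and the deposited values sum to between 388861 and 434022 FPKM per column. Annotation, filters and what defines a row: not given in the sources used here. Rows were summed per symbol, leaving out 1 row in which 1 cell held text. The members and lists were chosen with earlier results of these data known.

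limma 3.58.1 in R 4.3.3, with a mean-variance trend and Benjamini-Hochberg adjustment, was fitted to log2(FPKM + 1) of the 10636 genes that reached 1 FPKM in 3 or more separate profiles. Genotype over 6 profiles had 4 residual degrees of freedom, treatment over both genotypes (5 profiles, genotype as a term) had 2, and the fit of 1 mean per group (5 profiles) had 1, from the WT PBS pair, so its p-values assume that single profiles vary like that pair. Exact permutation tests used scipy 1.17.1. The procedure was also run on simulated profiles, all given a spread smoothed from the WT PBS pair. That run could not check whether single profiles vary like that pair. All members were named. Of the companion lists, called genes and the 2 of highest level were to be named, and other genes of these lists were chosen after their values were seen. Alternatives changed the pseudocount, filter, scaling, profiles, replicates, block and row summary. Promoter windows came from RefSeq by symbol and played no part in the levels.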

Additional observations from a re-analysis of the deposited data

How the results depend on the processing

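None of the 5 tested members was called in any of the 7 comparisons, and this held under each alternative that used separate profiles (limma, lowest adjusted p 0.351): pseudocounts of 0.1 and 0.5, no filter, a filter at 5 FPKM (which left out Mmp9 and Mmp8), TMM scaling, quantile normalization, the doubly labelled profile entered as KO PBS or as KO MPTP, the row of highest mean, and replicates left out, where the number called stayed at 0. For the 2 pooled comparisons each separate profile was left out in turn. For the other 5, WT PBS 1, WT PBS 2 or KO PBS 1 was left out with the doubly labelled profile counted as KO PBS, the last chosen after seeing the data, and no MPTP profile could be left out, since each MPTP group has 1. Adding the replicate number as a block, with that profile counted as KO PBS, also gave 0 calls. Same-numbered WT PBS and KO PBS profiles deviated together with r = 0.227 across 10636 genes, but only 1 such pair of groups could be compared, so whether the numbers mark a shared batch is undecided.

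With all 12 columns taken as libraries, which counts computed columns as replicates, 2 members were called for KO against WT (Timp2 and Mmp12), 1 for MPTP over both genotypes (Mmp8), 1 for KO against WT under PBS (Timp2) and 3 under MPTP (Timp2, Mmp12 and Mmp19). Of 501 alternative values of single members, 52 had another sign than the reported value, none of them called. The Timp2 difference in KO against WT ranged from −0.18 to −0.09 over 17 alternatives. Read depth is unknown, which limits what can be said of the 5 members under 1 FPKM.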
